A study of Homo sapiens with 12 samples.

Results

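The 41 genes described here encode the antioxidant, glutathione and iron handling machinery of the cell, and they were followed through an RNA-seq experiment on a pair of human cancer cell lines. They were picked by gene symbol from the deposited count table, where they take up 42 of 60668 rows. SOD2 has 2 rows, and its second row held at most 5 counts in any library. The tested groups were PANC-1 cells with FOSL1 knockdown (shFOSL1) and H1299 cells with HDAC2 knockdown (shHDAC2). Their references were PANC-1 and H1299 cells with a scrambled hairpin (shControl in the labels, scramble here), which the labels otherwise call WT, and each group had 3 libraries labelled as biological replicates. PANC-1 is labelled as pancreatic adenocarcinoma and H1299 as lung adenocarcinoma. Cells of all 4 groups carried a short hairpin RNA. For FOSL1 the study's methods describe delivery by virus made in HEK293T cells and puromycin selection, and for HDAC2 they do not give the delivery. Each knockdown rests on a single hairpin (called sh2 for FOSL1 and sh1 for HDAC2) in a single line, so the effect of a hairpin, its target and its line cannot be told apart. FOSL1 encodes FRA-1, an AP-1 transcription factor, and HDAC2 encodes a histone deacetylase.

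NFE2L2 encodes NRF2, a transcription factor that the adaptor KEAP1 marks for degradation in unstressed cells. Under oxidative or electrophilic stress NRF2 accumulates, pairs with small MAF proteins and binds antioxidant response elements in front of genes for glutathione synthesis, thioredoxin reduction, quinone reduction and iron storage. Part of such an element resembles the site bound by AP-1, and many tumours of the lung and pancreas depend on these genes to tolerate oxidants and drugs.

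Total counts per library ran between 16065723 and 19173421. Levels are given as CPM, a library's counts of a gene relative to its TMM-scaled total. Totals were scaled within each line for the knockdown comparisons and the levels per kilobase. They were scaled over all 12 libraries for the markers, IRS4 and the levels between lines, so the CPM of a library differ slightly between these parts. Folds are given as log2 of knockdown over scramble from edgeR's quasi-likelihood test, with p-values adjusted by the Benjamini-Hochberg method over all genes tested. A gene rose or fell where its adjusted p was under 0.05. The targeted genes followed their labels. FOSL1 had 169, 159 and 158 CPM in PANC-1 shFOSL1, against 212, 210 and 234 CPM in PANC-1 scramble (log2 fold change −0.43, adjusted p = 2.9e-06 by edgeR), so the transcript fell only in part. HDAC2 had 80.9, 71.5 and 81.5 CPM in H1299 shHDAC2, against 177, 187 and 196 CPM in H1299 scramble (log2 fold change −1.26, adjusted p = 5.4e-15 by edgeR). FOSL1 itself rose with HDAC2 knockdown, to 617 ± 26.6 CPM in H1299 shHDAC2, against 466 ± 29.6 CPM in H1299 scramble (SD, n = 3 each). The share of counts from mitochondrially encoded genes was 12.6% to 13.3% in PANC-1 shFOSL1 and 6.99% to 7.29% in PANC-1 scramble, a shift that runs with every PANC-1 result below. With mitochondrially encoded genes and the most abundant genes left out of the fit, none of the 22 calls with FOSL1 knockdown was lost. That fit bears on the scaling of the libraries only and cannot tell the shift from the knockdown. The part of the shift in the PANC-1 results was not tested. Scramble replicate 1 stood apart from replicates 2 and 3 in both lines. Of the markers checked, epithelial genes summed to 1551 to 1585 CPM in PANC-1 shFOSL1 and 2017 to 2577 CPM in PANC-1 scramble, and to 345 to 365 CPM in H1299 shHDAC2 and 548 to 610 CPM in H1299 scramble. Of these 6 markers, 1 rose and 5 fell with FOSL1 knockdown, and the 3 that could be tested in H1299 fell with HDAC2 knockdown. The 8 mesenchymal and fibroblast markers summed to 2315 to 2508 CPM in PANC-1 shFOSL1 and 2164 to 2280 CPM in PANC-1 scramble, mostly VIM, which rose, while COL1A1, FN1 and PDGFRB fell. In H1299 they summed to 1800 to 1853 CPM in shHDAC2 and 1642 to 1735 CPM in scramble, where FN1 rose and PDGFRB fell. The part of these marker shifts in the results below was not tested. The 7 blood and endothelial markers summed to at most 3.83 CPM in any library. The 6 lung epithelial markers summed to at most 3.94 CPM in H1299, and SFTPA1 and SCGB1A1 had no count there. The 9 pancreatic markers summed to 244.5 to 259.7 CPM in PANC-1 shFOSL1 and 244.3 to 271.5 CPM in PANC-1 scramble, nearly all from SOX9, and PTF1A, PRSS1 and INS had no count there. These markers were not particular to PANC-1, as they summed to 211.7 to 225.5 CPM in H1299 shHDAC2 and 190.6 to 198.5 CPM in H1299 scramble. In bulk RNA, fewer cells of a type and less RNA per cell cannot be told apart.

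H1299 scramble replicate 3 differed from the other H1299 libraries at genes that those libraries hardly express. GPX1 had 65 counts in that library against at most 9 in any of the other 5 H1299 libraries, and PRDX2 had 86 counts against at most 10. IRS4, a gene known for its strong expression in HEK293 cells and chosen here after its values were seen, had 152 counts (7.69 CPM) in that library and 0 counts in the other 11 libraries, which allows up to 3 counts in each. The part of such RNA in the GPX1 and PRDX2 values was not tested, and results that rest on that library are given with and without it.

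To show which of these genes carry an antioxidant response element or an AP-1 site close to their start, the 250 bases in front of the RefSeq start (GRCh38.p14) were searched on both strands for the core of the element, TGACNNNGC, and for the AP-1 site, TGACTCA. A promoter was at hand for 29 of the 41 genes. Each of these genes entered with a single promoter, whereas the 35116 promoters set beside them were not reduced to a single promoter per gene. The core was found in 5 of the 29 (17.2%), against 10.9% of all 35116 promoters, and the AP-1 site in 3 (10.3%), against 4.20% of all promoters. Both motifs can overlap, and they did so in 2 of the 29 (6.90%), against 0.456% of all promoters. The stretches below are shown because their genes are among those discussed, each read along its gene's strand with the motif in capitals.
GCLM (gene on the minus strand, core on the opposite strand), chr1:93909441-93909479: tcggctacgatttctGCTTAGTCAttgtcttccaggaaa
TXNRD1 (plus strand, core), chr12:104215665-104215703: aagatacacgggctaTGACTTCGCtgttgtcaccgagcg
OSGIN1 (plus strand, AP-1 site), chr16:83953128-83953164: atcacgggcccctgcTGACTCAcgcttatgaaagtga
GSTP1 (plus strand, core overlapping an AP-1 site), chr11:67583731-67583769: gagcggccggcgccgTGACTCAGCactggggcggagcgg
AIFM2 (gene on the minus strand, core overlapping an AP-1 site, both on the opposite strand), chr10:70132826-70132862: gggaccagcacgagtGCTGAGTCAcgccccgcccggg
GPX2 held the fifth core. GCLM, TXNRD1 and OSGIN1 fell with FOSL1 knockdown, whereas AIFM2 and GSTP1, whose windows hold both motifs, did not pass the test in either knockdown. Without PANC-1 scramble replicate 1, GSTP1 was higher with FOSL1 knockdown by 0.18 on the log2 scale (adjusted p = 4.6e-04 by edgeR). A motif match describes letters in a short window and shows no binding, and the longer enhancers of these genes lie outside it.

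With FOSL1 knockdown in PANC-1, several NRF2 target genes fell, among them GCLC, GCLM and TXNRD1, while NQO1 and the NFE2L2 transcript itself rose. Of the 36 genes of the list that could be tested, 16 fell (44.4%, against 27.1% of all 16345 genes tested), 6 rose (16.7%, against 23.8% of all genes) and 14 did not pass. Past an absolute log2 fold change of 0.5, 7 were lower (19.4%, against 15.8% of all genes) and 1 was higher (2.78%, against 10.6%). Without scramble replicate 1, 9 genes rose and 17 fell, and over all genes the rises numbered 4578 (3883 with it) and the falls 4540 (4429 with it). The median log2 fold change was −0.14 over the 36 genes and −0.02 over all genes tested. The genes' share of all counts was 0.667% to 0.677% in PANC-1 shFOSL1 and 0.795% to 0.820% in PANC-1 scramble.

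**Figure D1:**
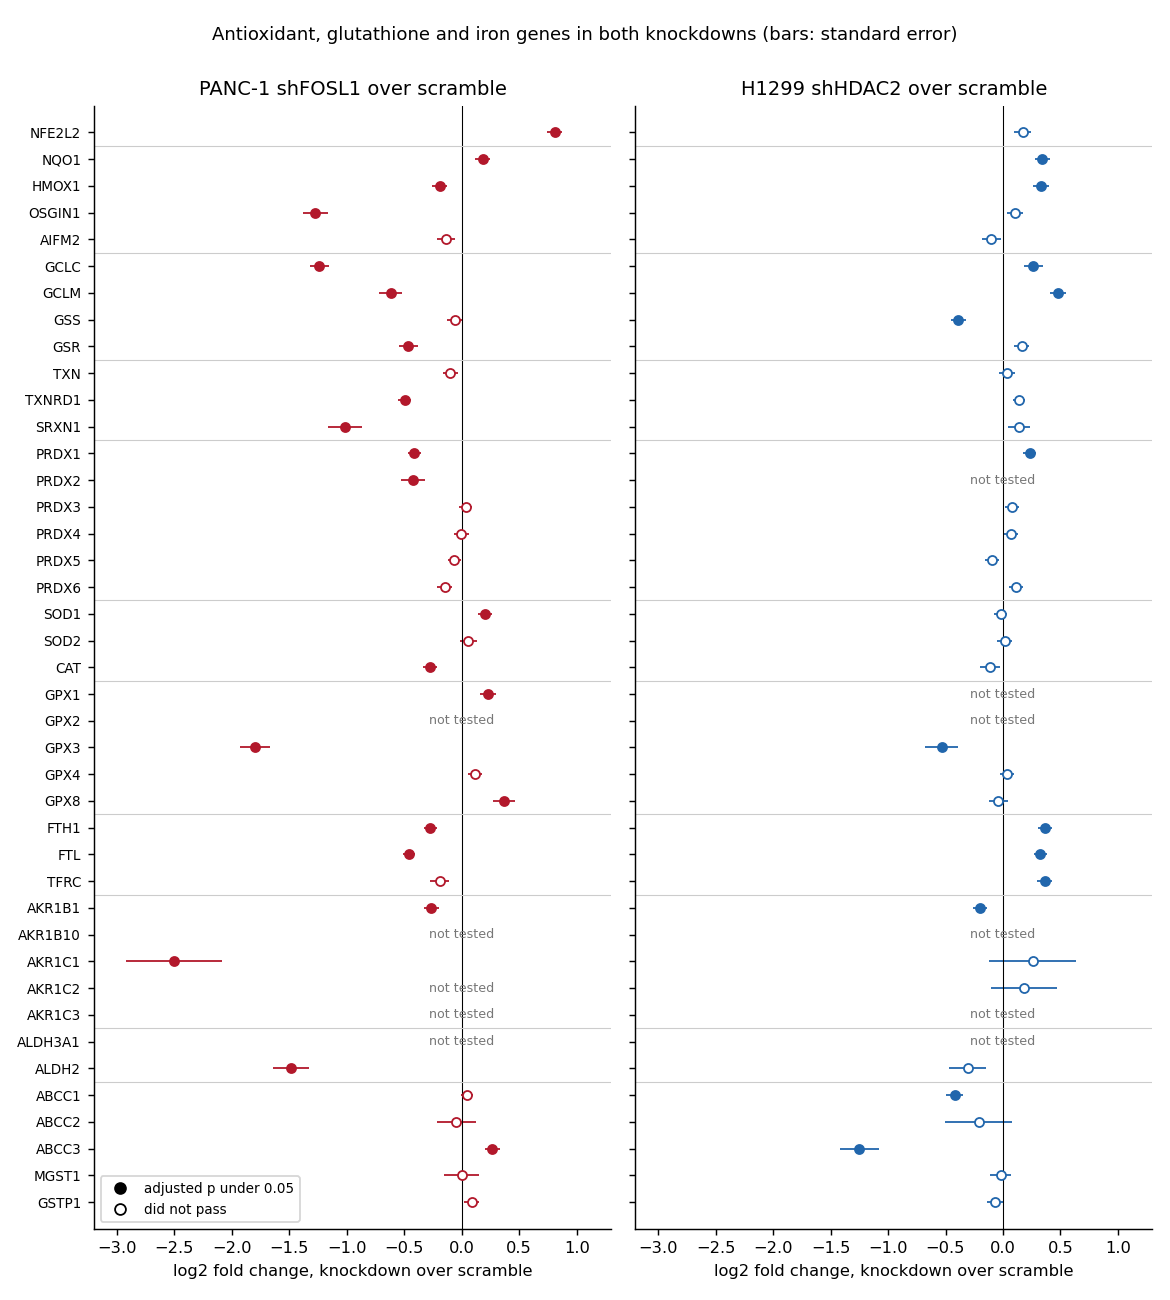
Log2 fold change of each gene (x axis) in PANC-1 shFOSL1 over scramble (left) and H1299 shHDAC2 over scramble (right), with bars for the standard error, filled points for adjusted p under 0.05 and grey lines between roles. In PANC-1, 16 genes fell and 6 rose, and in H1299, 8 rose and 5 fell.

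NFE2L2 (ENSG00000116044.16, chr2:177218667-177392756, minus strand, GRCh38) had 184, 189 and 189 CPM in PANC-1 shFOSL1, against 97.6, 109 and 114 CPM in PANC-1 scramble. The groups did not overlap, and the rise was 1.75-fold (log2 fold change 0.81, SE 0.07, adjusted p = 3.0e-10 by edgeR). It was the largest rise among the genes of the list tested here. Of the exon bases of NFE2L2 in GENCODE 44, 38.4% overlap other genes, mainly HNRNPA3 on the opposite strand, and reads from such bases cannot be assigned without strand. HNRNPA3 itself had a log2 fold change of −0.14 (adjusted p = 0.034 by edgeR). Another annotated gene shares 15.2% of the 100-base stretches of the NFE2L2 transcripts. The part of reads from such genes in the NFE2L2 values was not tested.

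The enzymes that make glutathione fell at their first step. GCLC (ENSG00000001084.13, chr6:53497341-53616970), the catalytic subunit of the rate-limiting glutamate-cysteine ligase, had 32.9, 28.9 and 29.1 CPM in PANC-1 shFOSL1, against 64.3, 72.8 and 77.5 CPM in PANC-1 scramble (log2 fold change −1.24, SE 0.08, adjusted p = 1.3e-11 by edgeR). GCLM (ENSG00000023909.10, chr1:93885199-93909456), the modifier subunit of the same ligase, had 25.9, 28.3 and 25.5 CPM in PANC-1 shFOSL1, against 33.8, 44.4 and 44.2 CPM in PANC-1 scramble (log2 fold change −0.62, SE 0.10, adjusted p = 1.3e-05). Every shFOSL1 library lay below every scramble library for both subunits, and scramble replicate 1 was the lowest of its group for both. GSR, which reduces oxidised glutathione, fell to 29.4 ± 1.17 CPM in PANC-1 shFOSL1, against 40.7 ± 1.96 CPM in PANC-1 scramble (SD, n = 3 each, log2 fold change −0.47). GSS, which carries out the second step of glutathione synthesis, had 65.0 ± 3.05 CPM in PANC-1 shFOSL1 and 67.6 ± 3.29 CPM in PANC-1 scramble and did not pass.

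In the thioredoxin system the reductase and sulfiredoxin fell. TXNRD1, the cytosolic thioredoxin reductase, had 550, 559 and 561 CPM in PANC-1 shFOSL1, against 709, 809 and 839 CPM in PANC-1 scramble (log2 fold change −0.50, SE 0.06, adjusted p = 1.8e-07 by edgeR). SRXN1 (ENSG00000271303.1, chr20:646615-653200), sulfiredoxin, which repairs over-oxidised peroxiredoxins, had 8.78, 13.9 and 16.9 CPM in PANC-1 shFOSL1, against 31.3, 25.2 and 23.5 CPM in PANC-1 scramble (log2 fold change −1.02, SE 0.15, adjusted p = 5.0e-06). The groups did not overlap, but shFOSL1 replicate 1 was well below the other 2 of its group. In GENCODE 44 another gene overlaps 90.7% of the SRXN1 exon bases, so its level is uncertain. TXN, thioredoxin itself, had 115 to 124 CPM in PANC-1 shFOSL1 and 124 to 133 CPM in PANC-1 scramble and did not pass (adjusted p = 0.197).

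Among the quinone and heme enzymes the directions were mixed. OSGIN1 (ENSG00000140961.14, chr16:83931311-83966332), an oxidative stress induced growth inhibitor, had 9.64, 9.78 and 11.7 CPM in PANC-1 shFOSL1, against 24.2, 26.0 and 25.3 CPM in PANC-1 scramble (log2 fold change −1.28, SE 0.11, adjusted p = 8.0e-10 by edgeR). NQO1, the quinone reductase often used as a readout of NRF2, had 224, 224 and 220 CPM in PANC-1 shFOSL1, against 209, 200 and 180 CPM in PANC-1 scramble, a rise of 0.18 on the log2 scale (adjusted p = 0.0168). HMOX1, which breaks down heme, had 272, 265 and 240 CPM in PANC-1 shFOSL1, against 276, 307 and 307 CPM in PANC-1 scramble (log2 fold change −0.19, adjusted p = 0.0121). The differences at NQO1 and HMOX1 were small, and each was lost when any of 3 libraries was left out, shFOSL1 replicates 1 and 2 or scramble replicate 3 for NQO1 (adjusted p up to 0.084), and shFOSL1 replicate 3 or scramble replicates 2 and 3 for HMOX1 (adjusted p up to 0.14). AIFM2, which reduces coenzyme Q and restrains lipid peroxidation, had 39.7 to 44.2 CPM in PANC-1 shFOSL1 and 44.2 to 48.5 CPM in PANC-1 scramble and did not pass.

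The enzymes that remove peroxide and superoxide did not move together. PRDX1, an abundant cytosolic peroxiredoxin, fell to 535 ± 19.4 CPM in PANC-1 shFOSL1, against 713 ± 40.8 CPM in PANC-1 scramble (log2 fold change −0.41, adjusted p = 1.3e-06 by edgeR). PRDX2 fell to 15.6 ± 0.957 CPM in PANC-1 shFOSL1, against 20.9 ± 1.78 CPM in PANC-1 scramble (log2 fold change −0.42). PRDX3, PRDX4, PRDX5 and PRDX6, found in mitochondria, the endoplasmic reticulum, several compartments and the cytosol, did not pass. PRDX6 was lower past the threshold with upper quartile scaling (adjusted p = 0.0329 by edgeR) and with a minimum of 10 counts (0.0309). CAT, catalase, fell to 146 ± 6.53 CPM in PANC-1 shFOSL1, against 177 ± 6.12 CPM in PANC-1 scramble (log2 fold change −0.28). SOD1, the cytosolic copper and zinc superoxide dismutase, rose to 211 ± 2.97 CPM in PANC-1 shFOSL1, against 184 ± 10.9 CPM in PANC-1 scramble (log2 fold change 0.20), while the mitochondrial SOD2 did not pass.

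Of the 4 glutathione peroxidases tested, the secreted form fell and 2 others rose. GPX3 (ENSG00000211445.12, chr5:151020591-151028988) had 5.42, 5.42 and 4.35 CPM in PANC-1 shFOSL1, against 17.8, 17.0 and 18.0 CPM in PANC-1 scramble (log2 fold change −1.80, SE 0.13, adjusted p = 3.2e-11 by edgeR). The cytosolic GPX1 and the endoplasmic reticulum form GPX8 rose by smaller amounts. GPX1 had 97.3, 98.6 and 98.2 CPM in PANC-1 shFOSL1, against 89.7, 85.4 and 76.6 CPM in PANC-1 scramble (log2 fold change 0.23). GPX8 had 30.1 ± 2.19 CPM in PANC-1 shFOSL1, against 23.3 ± 1.26 CPM in PANC-1 scramble (log2 fold change 0.37). GPX4, the phospholipid hydroperoxide peroxidase that holds back ferroptosis, had 354 to 366 CPM in PANC-1 shFOSL1 and 313 to 362 CPM in PANC-1 scramble and did not pass (adjusted p = 0.105). Without scramble replicate 1 it was higher by 0.21 on the log2 scale (adjusted p = 4.5e-05). GPX2 held at most 0.335 CPM in every library of PANC-1 and was not tested.

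Both ferritin chains fell. FTL, the light chain, had 1026, 1026 and 1008 CPM in PANC-1 shFOSL1, against 1444, 1435 and 1335 CPM in PANC-1 scramble (log2 fold change −0.46, SE 0.05, adjusted p = 6.2e-08 by edgeR). FTH1, the heavy chain that oxidises iron for storage, had 737, 763 and 741 CPM in PANC-1 shFOSL1, against 980, 877 and 852 CPM in PANC-1 scramble (log2 fold change −0.27, SE 0.06, adjusted p = 0.00026). The BEST1 gene on the opposite strand overlaps 63.2% of the annotated FTH1 exon bases, and 8 other annotated genes, among them ferritin pseudogenes, share 100-base stretches with FTH1, so its level is uncertain. TFRC, the transferrin receptor that brings iron into the cell, had 174, 182 and 198 CPM in PANC-1 shFOSL1, against 173, 240 and 221 CPM in PANC-1 scramble. The groups overlapped through scramble replicate 1, and TFRC did not pass (log2 fold change −0.19, adjusted p = 0.0545). Without that library it was lower by 0.29 on the log2 scale (adjusted p = 2.1e-06). TFRC was also lower past the threshold with the replicate block (adjusted p = 0.0168), upper quartile scaling (0.0237), no filter (0.0254), a minimum of 10 counts (0.0378) and without shFOSL1 replicate 3 (0.0482), so it lay at the edge of the test.

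ALDH2 (ENSG00000111275.13, chr12:111766887-111817532), the mitochondrial aldehyde dehydrogenase, had 2.79, 3.41 and 3.76 CPM in PANC-1 shFOSL1, against 9.19, 9.79 and 8.92 CPM in PANC-1 scramble (log2 fold change −1.48, SE 0.16, adjusted p = 2.9e-08 by edgeR). The aldo-keto reductases, which reduce aldehydes and ketones, were mostly silent. AKR1C1 (ENSG00000187134.14, chr10:4963253-4983283) had 0.342, 0.223 and 0.215 CPM in PANC-1 shFOSL1, against 1.40, 1.29 and 1.81 CPM in PANC-1 scramble (log2 fold change −2.51, SE 0.42, adjusted p = 2.1e-05). The 3 shFOSL1 libraries held 14 counts of AKR1C1 together and the 3 scramble libraries 88, and 13.6% of its transcripts' 100-base stretches also occur in other AKR1C genes. AKR1B1, aldose reductase, fell to 77.7 ± 4.41 CPM in PANC-1 shFOSL1, against 93.4 ± 3.79 CPM in PANC-1 scramble (log2 fold change −0.26). AKR1B10, AKR1C2, AKR1C3 and ALDH3A1 had at most 0.415 CPM in every PANC-1 library and were not tested.

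Of the conjugation and export genes, ABCC3, a multidrug resistance pump, rose to 125 ± 2.00 CPM in PANC-1 shFOSL1, against 104 ± 6.73 CPM in PANC-1 scramble (log2 fold change 0.26, adjusted p = 0.00149 by edgeR). The pumps ABCC1 and ABCC2 and the glutathione transferases MGST1 and GSTP1 did not pass. Without scramble replicate 1, GSTP1 (log2 fold change 0.18, adjusted p = 4.6e-04 by edgeR) and ABCC1 (0.10, adjusted p = 0.0356) were higher. ABCC1 had 471 to 497 CPM in PANC-1 shFOSL1 and 448 to 486 CPM in PANC-1 scramble, and GSTP1 had 290 to 295 CPM in PANC-1 shFOSL1 and 253 to 302 CPM in PANC-1 scramble.

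**Figure D2:**
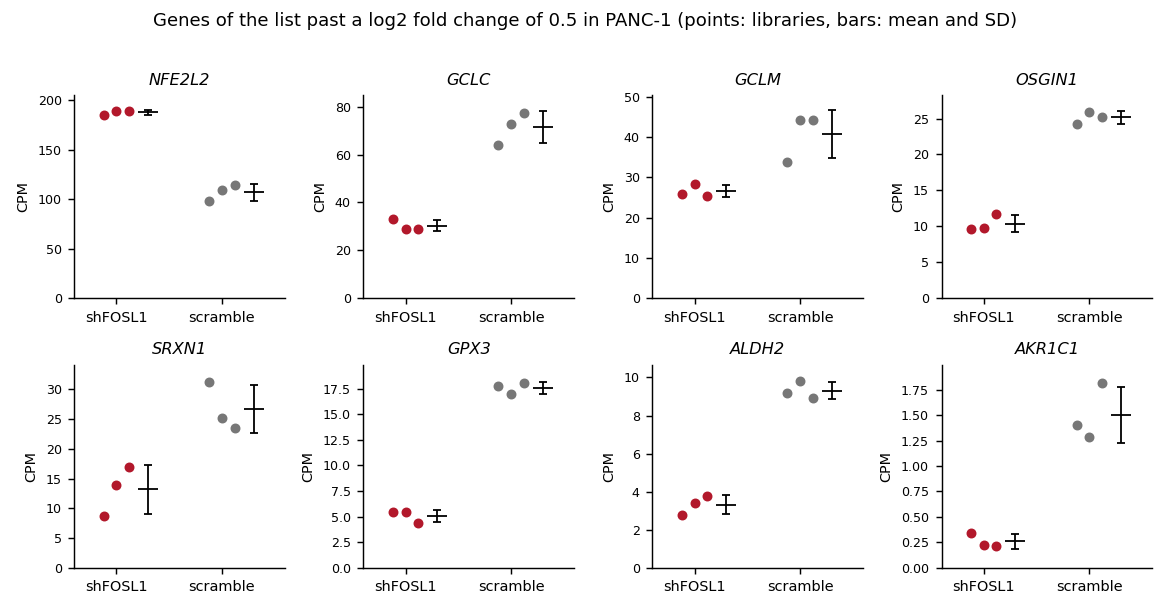
CPM (y axis, from 0) in each PANC-1 library for the 8 genes past an absolute log2 fold change of 0.5, with points for libraries and bars for the mean and SD of shFOSL1 (left) and scramble (right). NFE2L2 lay higher in shFOSL1 (184 to 189 CPM against 97.6 to 114 CPM), and the 7 other genes lay lower.

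With HDAC2 knockdown in H1299, ferritin, the transferrin receptor and several NRF2 targets rose by small amounts, and the pumps ABCC3 and ABCC1 fell. Of the 35 genes that could be tested, 8 rose (22.9%, against 10.3% of all 16465 genes tested), 5 fell (14.3%, against 12.1%) and 22 did not pass. Past an absolute log2 fold change of 0.5, 2 were lower (5.71%, against 5.61% of all genes) and 0 were higher (against 1.45%). No gene of the list had a log2 fold change over 0.5 at an unadjusted p under 0.05 either, and DESeq2 and limma-voom also gave 0. Without scramble replicate 1, 12 genes rose and 5 fell, and over all genes the rises numbered 2074 (1702 with it) and the falls 1993, as with it. The median log2 fold change was 0.07 over the 35 genes and −0.0049 over all genes tested. The genes' share of all counts was 0.436% to 0.446% in H1299 shHDAC2 and 0.401% to 0.419% in H1299 scramble.

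All 3 iron genes rose. FTH1 (ENSG00000167996.16, chr11:61959718-61967634) had 201, 206 and 211 CPM in H1299 shHDAC2, against 176, 155 and 149 CPM in H1299 scramble (log2 fold change 0.36, SE 0.06, adjusted p = 6.5e-05 by edgeR). FTL (ENSG00000087086.15, chr19:48965309-48966879) had 601, 590 and 592 CPM in H1299 shHDAC2, against 518, 439 and 467 CPM in H1299 scramble (log2 fold change 0.32, SE 0.06, adjusted p = 0.00012). TFRC (ENSG00000072274.13, chr3:196012511-196082153) had 99.7, 96.9 and 96.6 CPM in H1299 shHDAC2, against 71.6, 78.3 and 78.2 CPM in H1299 scramble (log2 fold change 0.36, SE 0.06, adjusted p = 0.0001). For each of the 3 genes every shHDAC2 library lay above every scramble library, and how often this held over all genes was not counted. Ferritin and the receptor act in opposite directions, on storage and uptake of iron, and both transcripts were higher here.

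Both subunits of glutamate-cysteine ligase rose and the next enzyme of the path fell. GCLM had 54.2, 54.1 and 51.6 CPM in H1299 shHDAC2, against 36.8, 39.7 and 38.3 CPM in H1299 scramble (log2 fold change 0.48, SE 0.07, adjusted p = 1.1e-05 by edgeR), the largest rise among the genes of the list that passed. GCLC had 46.5, 41.9 and 42.1 CPM in H1299 shHDAC2, against 31.7, 37.6 and 39.5 CPM in H1299 scramble (log2 fold change 0.26, adjusted p = 0.0212). The rise of GCLC was lost without shHDAC2 replicate 1 or scramble replicate 1 (adjusted p up to 0.13). GSS had 91.1, 85.1 and 84.7 CPM in H1299 shHDAC2, against 122, 111 and 108 CPM in H1299 scramble (log2 fold change −0.39, SE 0.07, adjusted p = 4.4e-05). GSR had 83.4 ± 2.88 CPM in H1299 shHDAC2 and 74.5 ± 2.85 CPM in H1299 scramble (SD, n = 3 each) and did not pass (adjusted p = 0.0691).

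NQO1 had 187, 181 and 181 CPM in H1299 shHDAC2, against 160, 127 and 145 CPM in H1299 scramble (log2 fold change 0.34, SE 0.07, adjusted p = 0.00029 by edgeR). HMOX1 had 75.0, 71.1 and 68.5 CPM in H1299 shHDAC2, against 57.7, 58.0 and 54.6 CPM in H1299 scramble (log2 fold change 0.33, SE 0.07, adjusted p = 0.00054). PRDX1 rose to 583 ± 28.7 CPM in H1299 shHDAC2, against 497 ± 28.8 CPM in H1299 scramble (log2 fold change 0.23, adjusted p = 0.00379), a call lost without shHDAC2 replicate 1 (adjusted p = 0.052). NFE2L2 had 81.0 to 88.7 CPM in H1299 shHDAC2 and 68.1 to 80.3 CPM in H1299 scramble and did not pass (log2 fold change 0.17, adjusted p = 0.0812). OSGIN1, AIFM2, TXN, TXNRD1 and SRXN1 did not pass, though TXNRD1, with 533 to 547 CPM in H1299 shHDAC2 and 472 to 505 CPM in H1299 scramble, did so with DESeq2 (adjusted p = 0.00994).

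ABCC3 (ENSG00000108846.16, chr17:50634777-50692253) had 3.06, 2.87 and 3.39 CPM in H1299 shHDAC2, against 6.63, 8.32 and 7.31 CPM in H1299 scramble (log2 fold change −1.25, SE 0.17, adjusted p = 1.7e-06 by edgeR), the largest change among the genes of the list that passed the filter on low counts in H1299. ABCC1, which exports glutathione conjugates, had 48.5, 44.4 and 45.0 CPM in H1299 shHDAC2, against 63.1, 63.1 and 58.5 CPM in H1299 scramble (log2 fold change −0.42, SE 0.07, adjusted p = 5.2e-05). GPX3 had 6.44, 6.18 and 4.97 CPM in H1299 shHDAC2, against 8.66, 8.38 and 8.31 CPM in H1299 scramble (log2 fold change −0.53, adjusted p = 0.00689), and without shHDAC2 replicate 3 it no longer passed (adjusted p = 0.074). AKR1B1 had 138 ± 3.53 CPM in H1299 shHDAC2, against 158 ± 10.8 CPM in H1299 scramble (log2 fold change −0.20, adjusted p = 0.0191), a call lost without any shHDAC2 replicate (adjusted p up to 0.12).

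The other genes of the list did not pass in H1299 or were too low to test. PRDX3, PRDX4, PRDX5, PRDX6, SOD1, SOD2, CAT, GPX4, GPX8, MGST1, GSTP1, ABCC2, ALDH2, AKR1C1 and AKR1C2 did not pass. GPX2, AKR1B10, AKR1C3 and ALDH3A1 had at most 0.492 CPM in every H1299 library and were not tested. GPX1 and PRDX2 were also left out of the test by the filter on low counts. GPX1 had 2, 6 and 9 counts in H1299 shHDAC2, against 5, 1 and 65 counts in H1299 scramble. PRDX2 had 9, 3 and 10 counts in H1299 shHDAC2, against 5, 6 and 86 counts in H1299 scramble. With no filter their fitted log2 fold changes were −1.93 and −2.01. The groups overlapped at both genes with scramble replicate 3 and without it. With that library set aside, both genes again fell below the filter and have no fitted fold.

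**Figure D3:**
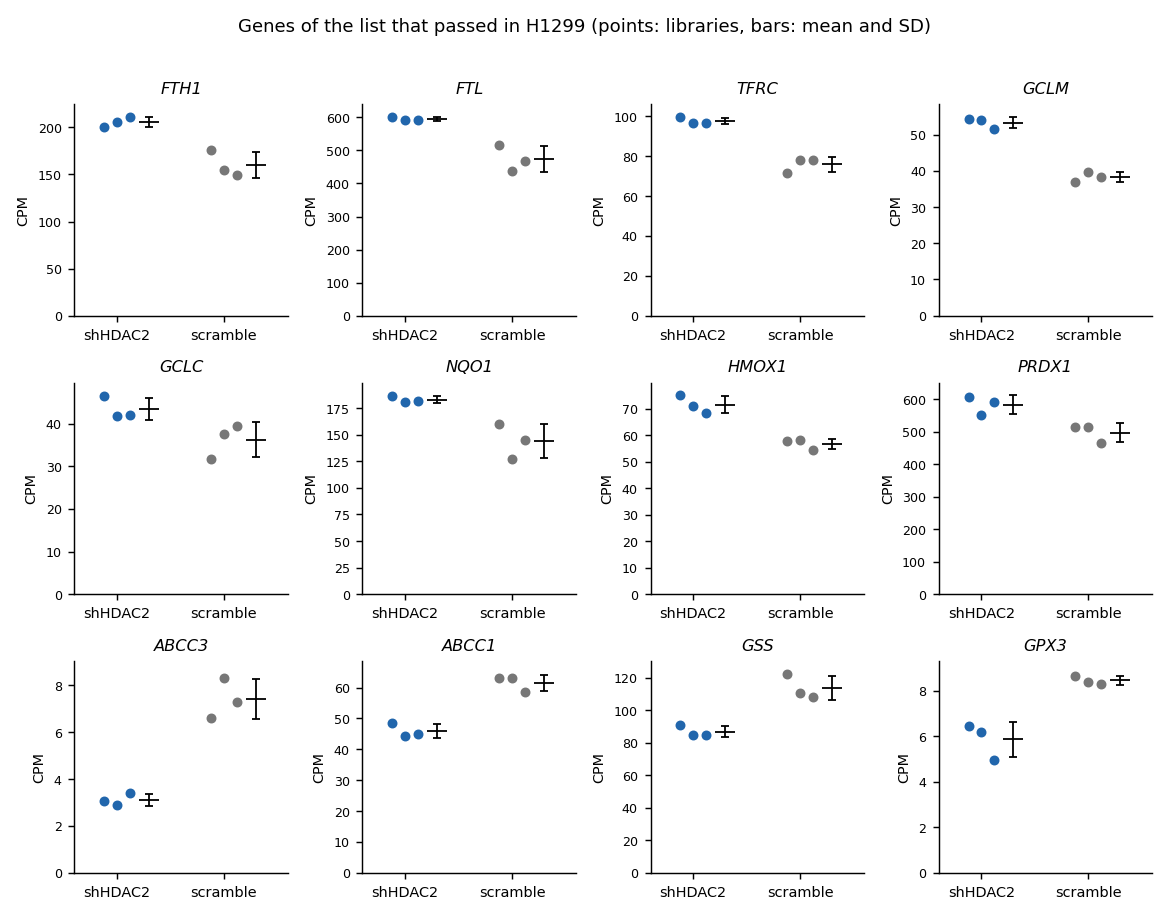
CPM (y axis, from 0) in each H1299 library for 12 of the 13 genes that passed, with points for libraries and bars for the mean and SD of shHDAC2 (left) and scramble (right). The 8 genes of the first 2 rows lay higher in shHDAC2, such as GCLM (51.6 to 54.2 CPM against 36.8 to 39.7 CPM), and ABCC3, ABCC1, GSS and GPX3 lay lower.

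The effects of both knockdowns were then set against each other in a single fit over all 12 libraries, in which target gene and cell line cannot be told apart. Of the 37 genes tested, 22 differed (59.5%, against 33.8% of all 18505 genes tested). FTH1, FTL, GCLC, GCLM, HMOX1 and PRDX1 fell with FOSL1 knockdown and rose with HDAC2 knockdown. For each of these 6 genes the difference itself passed, by −0.51 (HMOX1) to −1.48 (GCLC) on the log2 scale. With single libraries left out, HMOX1 lost its call in PANC-1, and GCLC and PRDX1 lost theirs in H1299. How many of all genes moved in opposite directions was not counted. ABCC3 was the opposite case, with a rise in PANC-1 and a fall in H1299 (difference 1.53, adjusted p = 1.7e-09 by edgeR). GPX3 fell in both, by more in PANC-1 (difference −1.24, adjusted p = 4.5e-06). NQO1 rose in both and AKR1B1 fell in both, and neither difference passed (adjusted p = 0.282 and 0.76). Differences also passed for NFE2L2 (0.66), OSGIN1 (−1.36), AKR1C1 (−2.74), ALDH2 (−1.15), SRXN1 (−1.13), TXNRD1 (−0.62), GSR (−0.61), TFRC (−0.53), GSS (0.35) and ABCC1 (0.49). GPX8 (0.43) and PRDX6 (−0.24) passed but lost the call in 1 and 3 of 15 alternatives, each with a library left out. SOD1 (0.24) lost it in 11 of 15 alternatives, RLE scaling among them. GPX1 passed with a difference of 2.20 (adjusted p = 0.0155), which turned to −0.70 (adjusted p = 0.46) without H1299 scramble replicate 3. The GPX1 call was also lost with DESeq2, with limma-voom and without H1299 shHDAC2 replicate 1 (adjusted p up to 0.51). PRDX2 did not pass, with a difference of 1.63 (adjusted p = 0.0698) with that scramble library and −0.87 (adjusted p = 0.23) without it. The 11 genes ABCC2, AIFM2, GPX4, GSTP1, MGST1, PRDX3, PRDX4, PRDX5, PRDX6, SOD2 and TXN passed in neither knockdown.

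**Figure D4:**
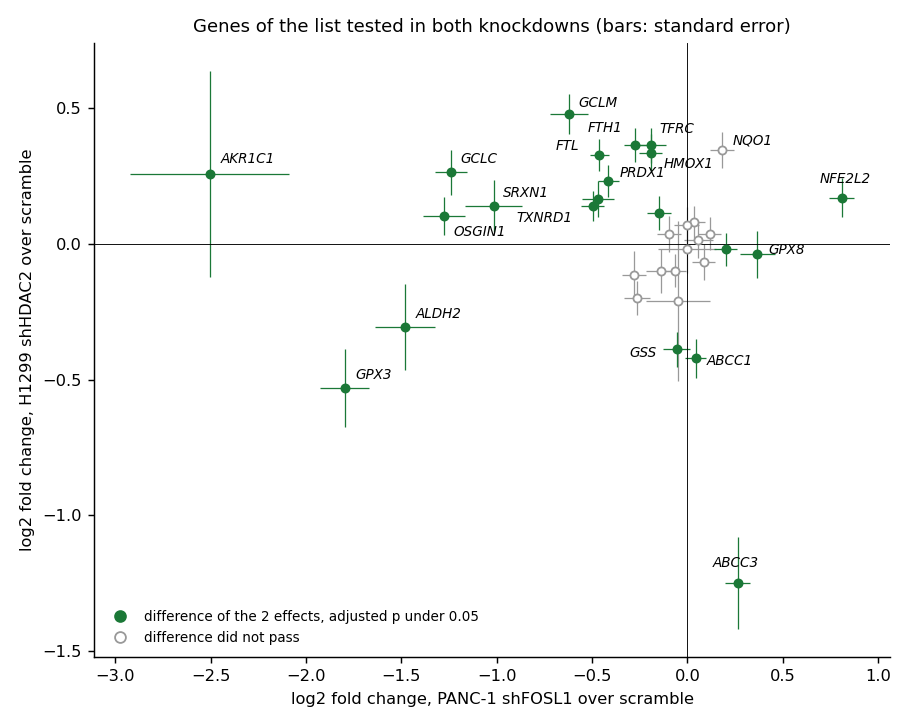
Log2 fold change of the 34 genes tested in both knockdowns, for PANC-1 shFOSL1 over scramble (x axis) against H1299 shHDAC2 over scramble (y axis), with bars for the standard error. Filled points are the 21 genes whose effects differed at adjusted p under 0.05, among them GCLC, GCLM, FTL and FTH1 at upper left and ABCC3 at lower right.

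The lines started from different levels, as the scramble libraries show, with CPM scaled here over all 12 libraries. Of 37 genes tested, 28 were higher in PANC-1 scramble than in H1299 scramble (75.7%, against 37.9% of all 18505 genes), 8 were lower (21.6%, against 39.8%) and SRXN1 did not pass. The median log2 difference was 0.63 over the 37 genes and −0.04 over all genes. ABCC1 had 503, 483 and 464 CPM in PANC-1 scramble, against 61.0, 59.8 and 55.8 CPM in H1299 scramble, an 8.21-fold difference. ABCC3 had 108 ± 6.99 CPM in PANC-1 scramble and 7.09 ± 0.757 CPM in H1299 scramble (15.2-fold). CAT had 184 ± 6.29 CPM in PANC-1 scramble and 26.4 ± 1.08 CPM in H1299 scramble (6.96-fold). FTH1 differed 6.11-fold, with 935 ± 70.8 CPM in PANC-1 scramble and 153 ± 14.4 CPM in H1299 scramble, HMOX1 5.65-fold, FTL 3.20-fold and TFRC 3.01-fold. MGST1 ran the other way, with 6.50, 5.97 and 7.25 CPM in PANC-1 scramble against 26.9, 24.5 and 28.2 CPM in H1299 scramble, and OSGIN1, GSR, GSS, AKR1B1, GPX8, PRDX6 and AKR1C2 were also lower in PANC-1. AKR1C2 had 1 count over the 3 PANC-1 scramble libraries.

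GPX1 and PRDX2 were close to silent in H1299 apart from scramble replicate 3. GPX1 had 92.8, 88.3 and 79.3 CPM in PANC-1 scramble, against 0.273, 0.0564 and 3.29 CPM in H1299 scramble. PRDX2 had 23.2, 22.1 and 19.6 CPM in PANC-1 scramble, against 0.273, 0.338 and 4.35 CPM in H1299 scramble. The fitted log2 difference of GPX1 was 6.09 with that library and 8.96 without it, and that of PRDX2 was 3.65 with it and 6.11 without it, with the highest adjusted p at 6.5e-12 by edgeR. Another annotated gene overlaps 39.9% of the GPX1 exon bases.

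**Figure D5:**
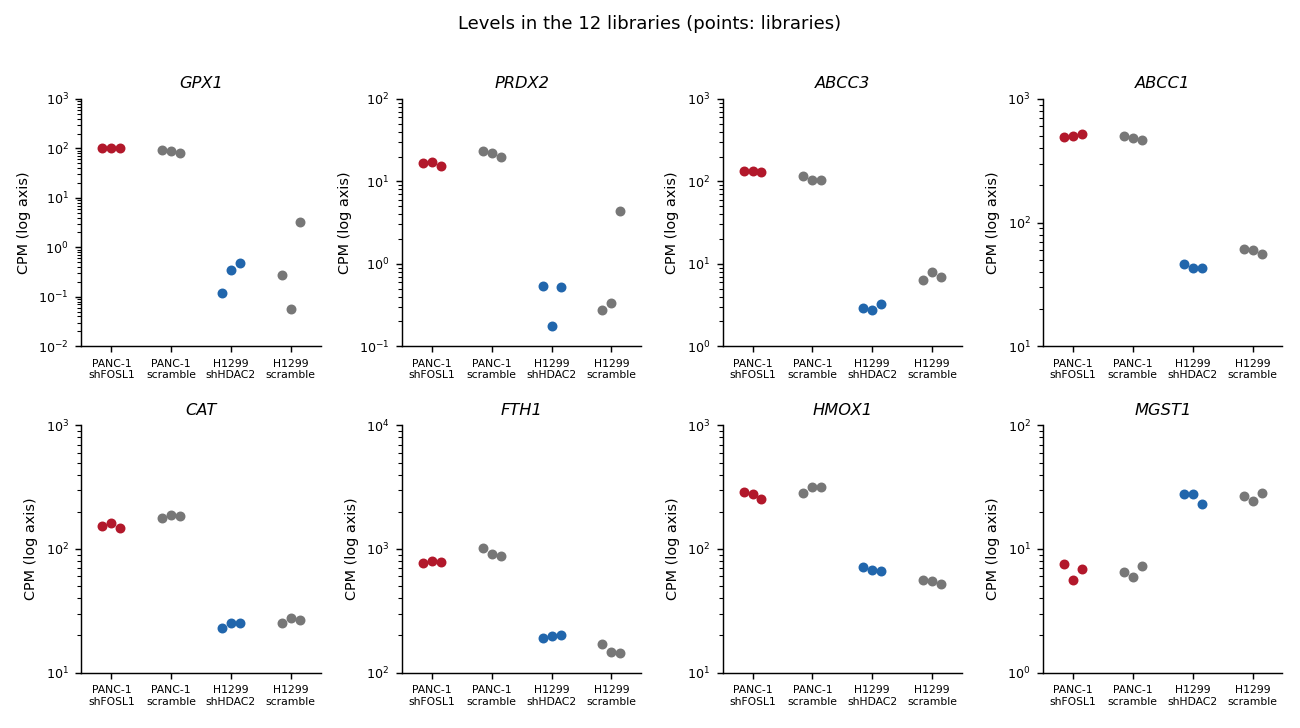
CPM on a log axis for 8 genes in each of the 12 libraries (points), by group. GPX1 and PRDX2 lay lower in every H1299 library than in any PANC-1 library. Of the H1299 libraries, scramble replicate 3 was the highest for both genes (3.29 and 4.35 CPM). MGST1 lay higher in H1299.

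Between genes, levels were set side by side per kilobase of exon. The length counts the exon bases of every annotated transcript, so it can exceed that of the expressed transcript and lower a gene's value. SOD2 had no length and is not ranked. FTL led both lines, with 1613 CPM per kilobase in PANC-1 scramble and 545 CPM per kilobase in H1299 scramble, each scaled within its own line. In PANC-1 scramble, PRDX5 (498), FTH1 (451) and PRDX1 (424 CPM per kilobase) came next, and in H1299 scramble PRDX1 (296) and PRDX5 (253 CPM per kilobase). With SDs of 23.3 CPM on 428 CPM for PRDX5, 68.3 CPM on 903 CPM for FTH1 and 40.8 CPM on 713 CPM for PRDX1 in PANC-1 scramble, the order of these neighbours is not clear beyond the spread between libraries. GCLC and GCLM were low in PANC-1 scramble, with 8.30 and 7.52 CPM per kilobase.

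Around the list, 131 further genes of the same pathways were followed in the table. Their counts with FOSL1 knockdown stand beside 23.8% of all genes tested that rose and 27.1% that fell. In PANC-1 shFOSL1, 4 of 12 tested partners and regulators of NRF2 rose and 4 fell, and 5 of 9 genes of NADPH supply rose and 1 fell. Of 13 tested genes of cystine uptake and glutathione turnover, 6 rose and 5 fell. SLC7A11, which imports cystine for glutathione synthesis, had 47.7, 45.5 and 46.2 CPM in PANC-1 shFOSL1, against 14.2, 19.7 and 26.8 CPM in PANC-1 scramble (log2 fold change 1.20, adjusted p = 4.9e-08 by edgeR). CHAC1, which degrades glutathione, rose by 2.57 on the log2 scale (adjusted p = 3.0e-16), to 73.7 ± 5.38 CPM in PANC-1 shFOSL1, against 12.4 ± 2.13 CPM in PANC-1 scramble. SLC7A11 and CHAC1 were thus higher in the libraries in which GCLC and GCLM were lower. The median log2 fold change over the 13 tested genes of cystine uptake and glutathione turnover was 0.09. Of 19 other thioredoxin and glutaredoxin genes, 3 rose and 7 fell. SESN2, a stress-induced sestrin, had 108, 110 and 102 CPM in PANC-1 shFOSL1, against 36.4, 38.1 and 46.5 CPM in PANC-1 scramble (log2 fold change 1.40). TXNIP, which binds and inhibits thioredoxin, had 11.2, 14.0 and 8.86 CPM in PANC-1 shFOSL1, against 199, 198 and 173 CPM in PANC-1 scramble (log2 fold change −4.07, adjusted p = 2.3e-19). GLRX, a glutaredoxin, fell to 4.48 ± 0.637 CPM in PANC-1 shFOSL1, against 10.3 ± 0.590 CPM in PANC-1 scramble (log2 fold change −1.19). Iron uptake, export and sensing genes moved both ways, with 5 of 20 higher and 5 lower.

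With HDAC2 knockdown, where 10.3% of all genes tested rose and 12.1% fell, the same lists gave lower counts. Of the partners and regulators of NRF2, 2 of 12 rose and 3 fell. Of 9 genes of NADPH supply, 0 rose by edgeR, DESeq2 or limma-voom, 1 was higher at an unadjusted p under 0.05, and 1 fell. Of 12 tested genes of cystine uptake and glutathione turnover, 1 rose and 5 fell. SLC7A11 was among the 5 that fell, with 14.7, 30.2 and 29.2 CPM in H1299 shHDAC2, against 26.3, 43.0 and 49.7 CPM in H1299 scramble (log2 fold change −0.68, adjusted p = 0.0028 by edgeR), and its groups overlapped. Replicate 1 was the lowest of both H1299 groups for SLC7A11. Of 20 iron uptake, export and sensing genes, 1 rose and 3 fell.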

How the data were processed

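RNA-seq was measured in 12 libraries in 4 groups of 3, taken from the labels. Per the labels and the study's methods, trimmed reads were mapped by the authors with STAR 2.7.2b on GRCh38, and the deposited values are raw counts per gene made with featureCounts 2.0.1. The annotation release and strand setting are not given in the sources used here, so antisense and overlapping genes may share reads. Deposited counts were tested without change. Genes were filtered with filterByExpr, scaled by TMM and tested by edgeR 4.0.16 (R 4.3.3) quasi-likelihood, within each line for the knockdowns and over 12 libraries for the line contrast and the difference of effects. The script was tested on simulated data. Alternatives used DESeq2 1.42.0, limma 3.58.1 (voom), other scalings and filters, a replicate block, and single libraries left out. Leaving out libraries in the difference and line contrasts was chosen after seeing the data.

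The 41 genes and all lists were chosen with earlier results of these data known. All 41 genes are named. Other pathway genes were named at adjusted p under 0.05, an absolute log2 fold change of at least 1, a mean of at least 5 CPM and no overlap between groups, and SLC7A11 is then given in both lines. Coordinates come from GENCODE 44 and promoters from RefSeq (GRCh38.p14). The smallest exact permutation p for groups of 3 is 0.1, so single genes rest on the fit across all genes. The labels call the libraries biological replicates, and nothing used here says that they came from separate cultures, so p-values measure the spread between these libraries.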

Additional observations from a re-analysis of the deposited data

How the results depend on the processing

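Counts of genes that passed stayed within 1.5 times the reported count except for 3 counts with HDAC2 knockdown. The count that fell was 5 and ran between 3 and 6 with a library left out. The count higher past a log2 fold change of 0.5 was 0 and ran between 0 and 1 with a library left out, through GCLM without shHDAC2 replicate 3 or scramble replicate 2. The count lower past 0.5 was 2, became 4 with no filter on low counts and 4 in a single fit of all 12 libraries, both through GPX1 and PRDX2, and ran between 1 and 3 with a library left out. Of the calls, 18 of 22 with FOSL1 knockdown, 9 of 13 with HDAC2 knockdown, 18 of 22 for the difference and 33 of 36 between lines held under every alternative run. TFRC, which did not pass with FOSL1 knockdown, passed in 6 alternatives, the replicate block among them. In the single fit of all 12 libraries GPX1 and PRDX2 no longer passed with FOSL1 knockdown (adjusted p by edgeR 0.2 and 0.17). The GPX1 difference ran between −0.70 and 2.7 with a library left out, and the cause was not tested. Genes that did not pass and changed sign numbered 6 with FOSL1 knockdown, 10 with HDAC2 knockdown and 6 for the difference, and no direction is given for them. Same-numbered knockdown and scramble libraries of a line did not deviate together (Pearson r across genes between −0.047 and 0.033). Libraries of PANC-1 were not set against those of H1299 in this way, so a batch shared by number across lines was not tested. With the replicate block 6 genes rose and 17 fell with FOSL1 knockdown, 8 rose and 5 fell with HDAC2 knockdown, and 8404 genes in all passed in PANC-1 and 3666 in H1299, against 8312 and 3695 without it. AKR1C1 and AKR1C2, with at most 2.63 CPM in any library, rest on few counts.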

Other observations

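Other pathway lists had calls in both directions. With FOSL1 knockdown, where 23.8% of all genes tested rose and 27.1% fell, 2 of 14 tested other glutathione transferases and peroxidases rose and 4 fell, 2 of 15 ferroptosis and quinone reduction genes rose and 5 fell, and 4 of 17 genes of selenoprotein synthesis rose and 3 fell. With HDAC2 knockdown, 0 of 11 tested other glutathione transferases and peroxidases passed by edgeR, where 2 had an unadjusted p under 0.05, and 0 passed by DESeq2 or limma-voom. With 10.3% of all genes tested higher and 12.1% lower in that comparison, 2 of 15 ferroptosis and quinone reduction genes rose and 3 fell, and 3 of 16 genes of selenoprotein synthesis rose and 1 fell.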
